A study of Mus musculus with 73 samples.

Results

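The S100 proteins are a family of small calcium sensors, and 8 of their genes (S100a4, S100a6, S100a10, S100a11, S100a1, S100a13, S100a8 and S100a9) were followed, chosen by symbol among 23994 mouse gene rows. Their transcripts were read in 73 single cells. The cells came from the right lung lobes of 1 adult B6 mouse of 10 weeks with a Csf1r-GFP genotype, 7 days after the chest was opened and the left lobe taken out. They had been sorted as CD45+, CSF1R-GFP+ and F4/80+ macrophages, with Ly6G named in the labels without a sign. All cells belonged to 1 group and were captured on a microfluidic chip before amplification of polyadenylated RNA. An unoperated lung was not analysed here, so no value below is a change caused by surgery. With a single mouse there is no replicate of any condition, so the values are descriptions and carry no p-value. Where nothing else is said, the spread is that between cells, which includes technical spread.

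Each S100 protein carries a pair of EF-hand loops that bind calcium, and most work as dimers that open on calcium binding and grip a partner protein. Inside the cell they act on annexins, myosin and the cytoskeleton. Some also leave the cell and act as danger signals, and S100A8 with S100A9 forms calprotectin, the abundant cytosolic complex of neutrophils and of many blood monocytes. S100A10 is unusual in having lost calcium binding, and it holds annexin A2 in a complex at the membrane. Most mouse S100 genes, including all 8 here, lie in a cluster on chromosome 3.

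Depth and cell identity were checked first. The cells held from 347003 to 3485925 mouse fragments (median 1408833) and from 1044 to 3745 detected genes (median 2290), where a gene is called detected at 1 FPKM (fragments per kilobase of transcript, scaled for depth) or more. Of the genes behind the sort, Ptprc (the CD45 gene) was found in 69 of 73 cells, Csf1r in 65 and Emr1 (the F4/80 gene) in 41. Ly6g was not analysed here. Clustering without any S100 gene gave a cluster of 12 cells led by Ear2, Plet1, Atp6v0d2, Car4, Chil3 and Ear1, called alveolar-macrophage-like. The other cells were divided by class genes, each at 10 FPKM or more. There were 10 C1q-positive cells (at least 2 of C1qa, C1qb and C1qc). Of the cells that missed this rule, 13 were class II-positive (at least 2 of H2-Aa, H2-Ab1 and H2-Eb1). A further 30 cells missed both rules and were Ly6c2-positive, and these serve as the comparison. The last 8 cells met no rule and are called remaining. The rules were applied in this order, so a cell of an earlier class may also hold Ly6c2. The clustering did not separate the class II-positive, Ly6c2-positive and remaining cells. A single cluster of 50 cells held 29 of 30 Ly6c2-positive, 12 of 13 class II-positive, 8 of 8 remaining and 1 of 10 C1q-positive cells. In the Ly6c2-positive cells Ccr2, the receptor that draws classical monocytes into tissue, was detected in 29 of 30. Lymphoid markers were listed at 0 in every class. Cells 2, 38 and 54 each held at least 3 endothelial or epithelial markers at 10 FPKM or more.

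Across the 73 cells, 6 of the 8 members were detected in at least 50% of cells. S100a11, whose protein binds annexin A1, was the most widespread, detected in 69 cells (94.5%, exact Clopper-Pearson 95% interval 86.6 to 98.5), with a median of 1344 FPKM and a maximum of 6351 FPKM. S100a10 was detected in 65 cells (79.5 to 95.1% of cells) at a median of 441 FPKM. S100a6, also called calcyclin, was detected in 54 cells at a median of 643 FPKM. S100a4, whose protein binds non-muscle myosin and is also known as fibroblast-specific protein, was detected in 52 cells at a median of 254 FPKM. S100a13, whose protein takes part in the release of Fgf1 and Il1a without a signal peptide, was detected in 51 cells at a median of 31.7 FPKM. S100a1, best known for calcium handling in heart muscle, was detected in 41 cells (56.2%, 44.1 to 67.8) at a median of 3.77 FPKM. These intervals cover counting error only.

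The order of those medians did not hold in every cell. S100a11 was the highest of the 8 in 37 cells, S100a4 in 9, S100a6 in 8, S100a10 in 7, S100a1 in 5, S100a13 in 4 and S100a8 in 1. Neighbours in the order of medians were compared in the cells with both. S100a11 stood above S100a6 in 36 of 52 such cells, with a ratio of FPKM from 0.0467 to 72.4 and a median of 1.56. S100a6 stood above S100a10 in 31 of 50, S100a10 above S100a4 in 28 of 48 and S100a4 above S100a13 in 29 of 38. S100a13 stood above S100a1 in 13 of 31, with a median ratio of 0.532, against the order of their medians over all cells. Neither gene of any of these pairs was the higher in every cell. Their summed level had a median of 3603 FPKM and reached 16293 FPKM in cell 76, a Ly6c2-positive cell. No member was detected in cells 11 (C1q-positive) and 41 (remaining), which held 1107804 and 458438 mouse fragments, against the median of 1408833.

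**Figure D1:**
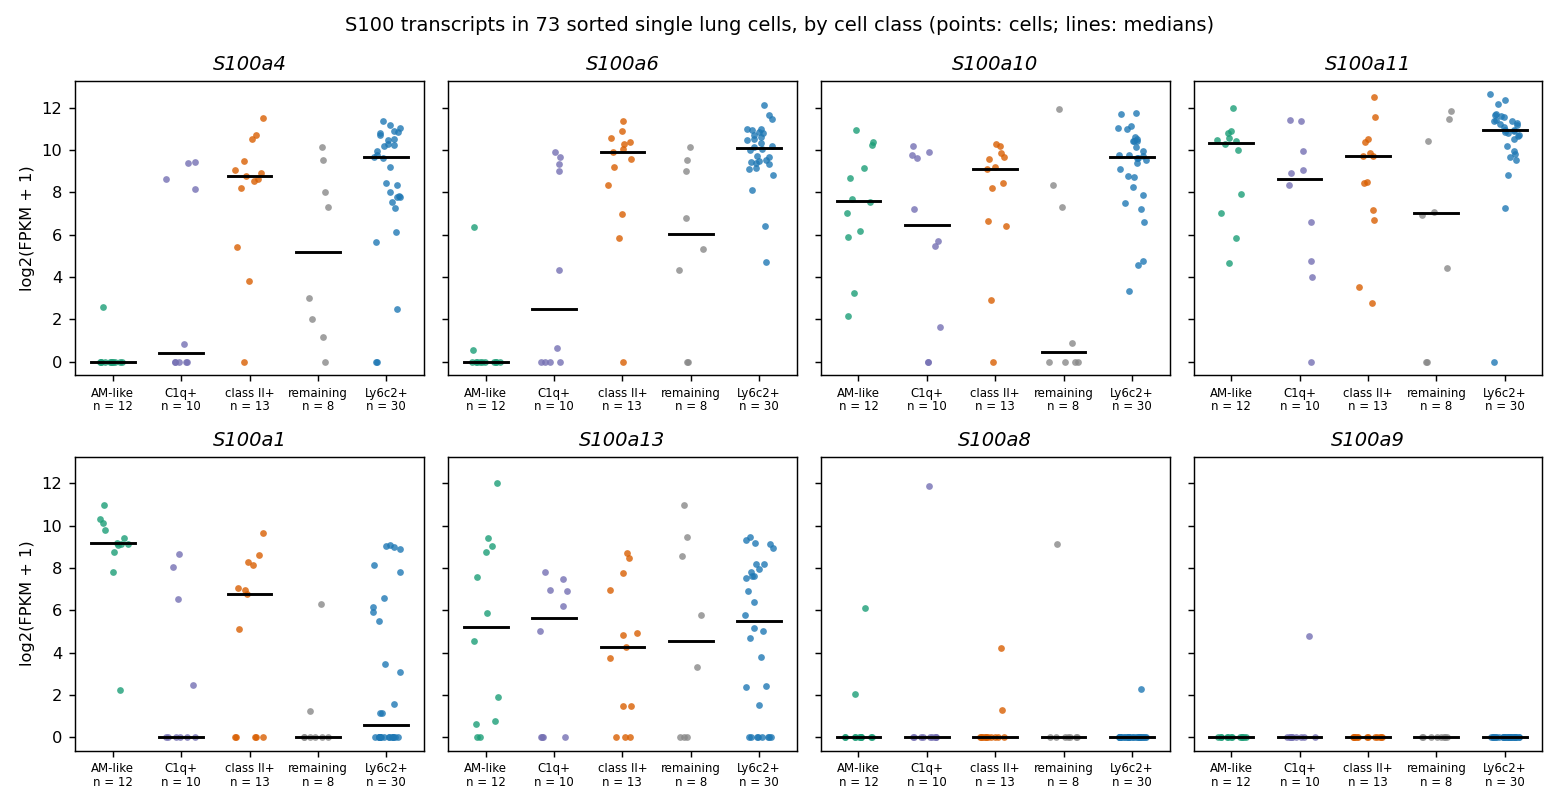
Level of each member, as log2(FPKM + 1) on the vertical axis, in every cell (points) of the 5 classes, with the class median as a line. AM-like stands for alveolar-macrophage-like, and + for positive. S100a4 and S100a6 are at or near 0 in 11 of the 12 alveolar-macrophage-like cells, in which S100a1 has its highest median.

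S100a4 and S100a6 gave the widest separation between classes. They lie close together on chromosome 3, with S100a5 between them. S100a4 is at chr3:90603771-90606045 and S100a6 is at chr3:90612882-90624181, both on the plus strand of mm10 in the GENCODE annotation. Because their transcripts were found together, the bases just before each start are shown, taken from RefSeq (build GRCm38.p6) and kept outside annotated exons, with capitals marking a TATA box (TATAAA). The S100a4 stretch is chr3:90603520-90603769 and the S100a6 stretch is chr3:90612644-90612881.
S100a4: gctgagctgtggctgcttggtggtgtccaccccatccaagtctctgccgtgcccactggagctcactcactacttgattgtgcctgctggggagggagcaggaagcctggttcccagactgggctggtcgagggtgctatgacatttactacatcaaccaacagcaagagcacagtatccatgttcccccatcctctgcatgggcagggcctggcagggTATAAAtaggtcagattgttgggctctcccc
S100a6: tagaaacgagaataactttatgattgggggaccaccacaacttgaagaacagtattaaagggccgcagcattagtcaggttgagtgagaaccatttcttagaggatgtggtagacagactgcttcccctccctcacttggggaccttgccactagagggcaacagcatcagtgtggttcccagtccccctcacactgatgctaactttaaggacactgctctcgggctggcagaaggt
A search of both strands of the 250 bases before the start found TATAAA once in S100a4, and 13% of 27025 mouse promoter windows of that length hold it. None of the motifs searched (TATAAA, TTGCNNAA for C/EBP, TGANTCA for AP-1, GAGGAAGT for PU.1 and GGGCGG for the GC box) was found in the S100a6 window. The other shares are 9.55% for TTGCNNAA, 6.87% for TGANTCA, 2.44% for GAGGAAGT and 32.9% for GGGCGG. A match is a description of the letters and not a binding site.

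Of the 12 alveolar-macrophage-like cells, 1 held S100a6, as did 30 of 30 Ly6c2-positive cells. Its lowest, median and highest values were 0, 0 and 80.2 FPKM in alveolar-macrophage-like cells, against 24.7, 1099 and 4491 FPKM in Ly6c2-positive cells. The single positive alveolar-macrophage-like cell was cell 36, the shallowest of all with 347003 mouse fragments, and the classes overlapped only through it. S100a4 was present in that same alveolar-macrophage-like cell alone, at 5.02 FPKM from 1 fragment. It was detected in 28 of 30 Ly6c2-positive cells, where its lowest, median and highest values were 0, 806 and 2627 FPKM. The difference of mean log2(FPKM + 1) was -9.29 for S100a6 (0.57 ± 1.82 in alveolar-macrophage-like cells and 9.86 ± 1.48 in Ly6c2-positive cells, SD over 12 and 30 cells). For S100a4 the difference was -8.25 (0.22 ± 0.75 in alveolar-macrophage-like cells and 8.47 ± 3.03 in Ly6c2-positive cells). Both differences exceed the spread among cells of either class.

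S100a10 and S100a11, both partners of annexins, were found in all 12 alveolar-macrophage-like cells. S100a10 had lowest, median and highest values of 3.51, 195 and 1969 FPKM there, against 9.20, 815 and 3507 FPKM in Ly6c2-positive cells. S100a11 had 24.5, 1303 and 4009 FPKM in alveolar-macrophage-like cells, against 0, 1999 and 6351 FPKM in Ly6c2-positive cells. The ranges overlapped for both genes. The differences of mean log2(FPKM + 1) were -1.68 for S100a10 and -1.24 for S100a11, each smaller than the SD among alveolar-macrophage-like cells, 2.74 and 2.30. The S100a11 difference fell short of 1 log2 unit under other ways of drawing the class, at -0.73 by k-means and -0.90 by a marker rule, and was -0.82 without cell 85.

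S100a1 went the other way. All 12 alveolar-macrophage-like cells held it, with a lowest value of 3.77, a median of 578 and a highest of 2035 FPKM. The lowest value, in cell 36, came from 1 fragment. In Ly6c2-positive cells it was detected in 15 of 30, with 0, 0.597 and 536 FPKM as the lowest, median and highest values. Ranges overlapped, and 11 of the 12 alveolar-macrophage-like cells stood at 10 FPKM or more, against 11 of the 30 Ly6c2-positive cells. The difference of mean log2(FPKM + 1) was 5.96 (8.84 ± 2.23 in alveolar-macrophage-like cells and 2.89 ± 3.60 in Ly6c2-positive cells). S100a1 was the highest member in 4 alveolar-macrophage-like cells and in 1 class II-positive cell. For S100a13 the difference of means was 0.21, opposite in sign to the medians, which were 39.8 FPKM in alveolar-macrophage-like cells and 44.7 FPKM in Ly6c2-positive cells. It was -0.43 without cell 36, in which S100a13 reached its maximum of 4198 FPKM.

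In all, 4 of the 6 members that passed a filter of detection in at least 8 cells were lower in alveolar-macrophage-like than in Ly6c2-positive cells by 1 log2 unit or more, a fold called on 12.1% of the 6151 genes tested. S100a1 alone was higher, 1 of 6 members, which is near the share of 18.6% among the tested genes. The members' median difference was -1.46, against 0.09 over all tested genes. By mean FPKM the 6 members ranked from 36 (S100a11) to 350 (S100a1) among the 23994 gene rows. The tested genes were not matched to them in level, here or in the comparisons below. The alveolar-macrophage-like cells had a median of 1057394 mouse fragments, against 1578729 in Ly6c2-positive cells. After all cells were thinned to 347003 mouse fragments the differences were -9.32 for S100a6, -8.27 for S100a4 and 6.03 for S100a1.

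**Figure D2:**
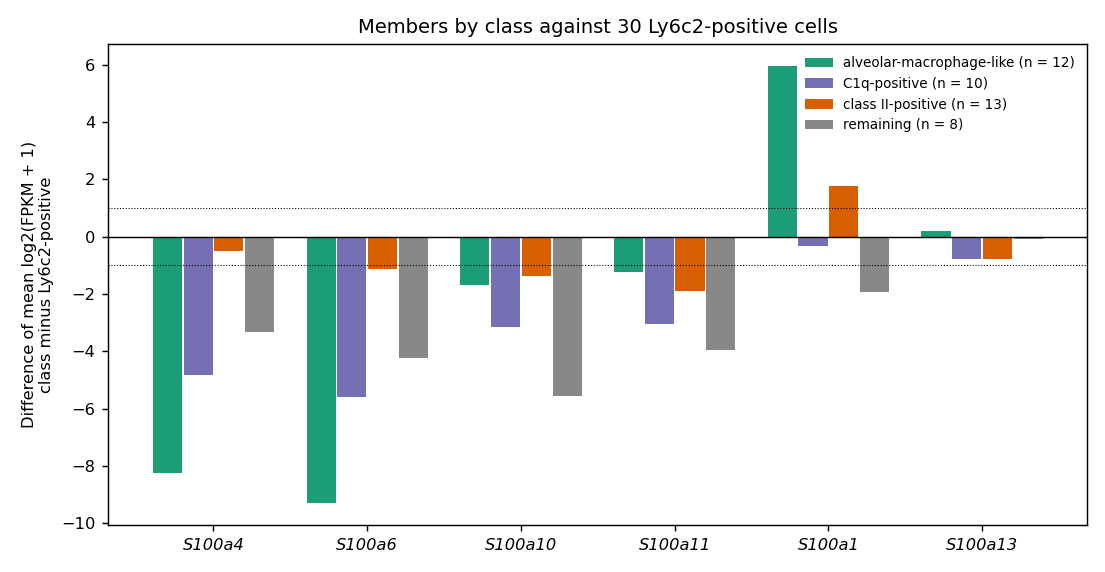
Difference of mean log2(FPKM + 1), each class minus the 30 Ly6c2-positive cells, for the 6 members detected in at least 8 cells. Dotted lines mark 1 log2 unit either way. S100a6 and S100a4 reach -9.29 and -8.25 in alveolar-macrophage-like cells, and S100a1 reaches 5.96.

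The 10 C1q-positive cells were split in their S100 transcripts. S100a4 was detected in 4 of 10 and S100a6 in 5 of 10, with medians of 0.399 FPKM for S100a4 and 9.93 FPKM for S100a6 in C1q-positive cells, against 806 FPKM for S100a4 and 1099 FPKM for S100a6 in Ly6c2-positive cells. Of these cells, 6 formed a cluster of their own led by C1qb, C1qa, C1qc, Ms4a7, Pf4 and Apoe, and the other 4 fell in other clusters. In the cluster of 6, S100a6 was detected in 1 cell (507 FPKM in cell 94) and S100a1 in 0, and S100a11 had a median of 213 FPKM. In the other 4 cells, S100a6 and S100a1 were detected in all 4, and S100a11 had a median of 1809 FPKM. These were cells 25, 30, 38 and 84, with 1591272 to 3485925 mouse fragments, against 762296 to 1744111 in the cluster of 6. Ear2 stood at 711, 277 and 1237 FPKM in cells 25, 38 and 84, and Ly6c2 at 1816 FPKM in cell 30. In the cluster of 6 Ear2 was 0 and Ly6c2 at most 0.418 FPKM. The part of depth and of these genes in the split was not tested. Cluster genes excluded the S100 family. The differences of the C1q-positive class from Ly6c2-positive cells were -4.82 for S100a4, -5.57 for S100a6, -3.16 for S100a10 and -3.03 for S100a11, while S100a1 stood at -0.31, turning to 0.03 when scaled to the spike-in RNA. With the alveolar-macrophage-like class drawn by k-means, S100a1 stood at -2.01 and S100a13 at -2.00, against -0.80 for S100a13 otherwise. With the class drawn by Ward clustering this made 4 of 6 members lower, against 10.8% of all tested genes, and 0 higher, against 13.8%. The members' median difference was -3.10, against 0.03 over all tested genes. Over the whole classes the median depths were close, 1641786 mouse fragments in C1q-positive cells and 1578729 in Ly6c2-positive cells.

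The class II-positive cells had the smallest median difference over the 6 members from the Ly6c2-positive ones, -0.96, against -0.02 over all tested genes. They also shared much of the markers of the Ly6c2-positive class, with Ly6c2 detected in 9 of 13 class II-positive cells, Ccr2 in 12 of 13 and a median of 8 classical monocyte markers per cell, against 9 in Ly6c2-positive cells. Of 10 dendritic cell markers, 4 were detected in Ly6c2-positive cells, with a median of 0 per cell and a sum of at most 79.3 FPKM. In class II-positive cells 8 were detected, with a median of 1 per cell and a sum between 0 and 7426 FPKM. The part of these markers in the result was not tested. S100a4 was detected in 12 of 13, with 0, 431 and 2934 FPKM as lowest, median and highest, against 0, 806 and 2627 FPKM in Ly6c2-positive cells. S100a6 was detected in 12 of 13, with a median of 976 FPKM in class II-positive cells and 1099 FPKM in Ly6c2-positive cells. The differences in mean log2(FPKM + 1) were -1.13 for S100a6, -1.37 for S100a10 and -1.91 for S100a11, which made 3 of 6 lower, against 8.96% of all tested genes. Without cells 2 and 54, which held endothelial or epithelial markers, S100a6 stood at -0.08, S100a10 at -0.23 and S100a11 at -1.55, so that 1 of 6 was lower. Cell 2 alone moved S100a6 to -0.40 and S100a10 to -0.73. S100a1 was detected in 8 of 13 class II-positive cells, with a median of 108 FPKM, against 0.597 FPKM in Ly6c2-positive cells. Its difference was 1.78, and 1.98 without those 2 cells, against 8.5% of tested genes higher by 1 log2 unit or more.

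The 8 remaining cells, which fell in no other class, had the lowest median of S100a10. It was detected in 3 of 8 with a median of 0.420 FPKM in remaining cells, against 30 of 30 and 815 FPKM in Ly6c2-positive cells. Genes of other classes were not absent. Ear2 and Chil3, which led the alveolar-macrophage-like cluster, were detected in 5 and 4 of the 8, and Ly6c2 in 1, at 8.24 FPKM. The differences were -5.55 for S100a10, -4.22 for S100a6, -3.96 for S100a11, -3.32 for S100a4 and -1.94 for S100a1. These made 5 of 6 members lower, against 20.1% of all tested genes, and 0 higher, against 6.1%. Their median difference was -3.64. The 8 cells were also the shallowest class, with a median of 765516 mouse fragments, against 1578729 in Ly6c2-positive cells, and the median tested gene itself stood at -0.32. After thinning to equal depth the S100a10 difference was -5.63. Each of 9 markers of non-classical monocytes was detected in at least 1 remaining cell, with a median of 4 per cell and a sum between 2.48 and 2705 FPKM. In Ly6c2-positive cells 6 of the 9 were detected, with a median of 2 per cell and a sum between 1.54 and 975 FPKM. C1q-positive and class II-positive cells held 8 of the 9 each. Among the markers, Treml4 and Ace had medians of 46.1 and 14.9 FPKM in remaining cells, and both 0 in Ly6c2-positive cells. Nr4a1 and Cx3cr1 had medians of 43.4 and 0.851 FPKM in remaining cells, against 89.5 and 0.907 FPKM. The part of these markers in the result was not tested.

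**Figure D3:**
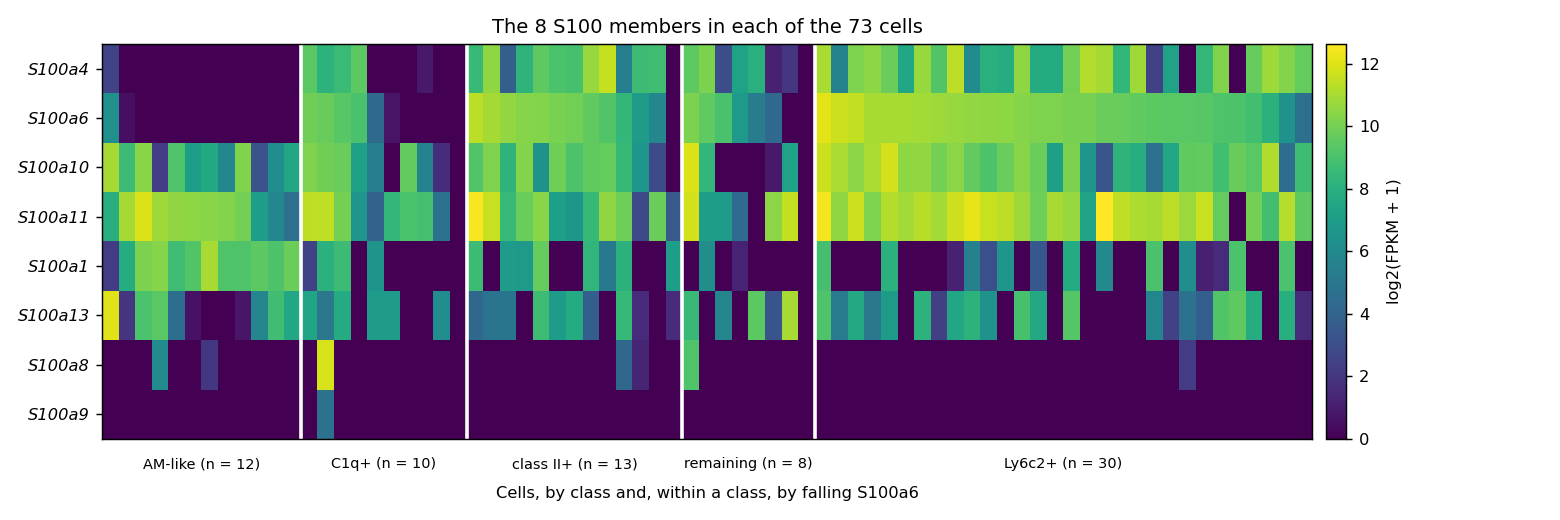
Each column is 1 of the 73 cells, ordered by class and by falling S100a6 within a class, and each row is a member, coloured by log2(FPKM + 1), with AM-like for alveolar-macrophage-like and + for positive. S100a8 appears in 7 cells and S100a9 in 1.

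The joint pattern of S100a4, S100a6 and S100a1 set the alveolar-macrophage-like cells apart, while the other classes were spread over several patterns. S100a1 without S100a4 and S100a6 was found in 12 cells, of which 11 were alveolar-macrophage-like and 1 was cell 2, class II-positive with endothelial markers. S100a4 and S100a6 without S100a1 were found in 25 cells, of which 15 were Ly6c2-positive and 0 alveolar-macrophage-like. All 3 were found in 26 cells from every class (1 alveolar-macrophage-like, 3 C1q-positive, 7 class II-positive, 2 remaining and 13 Ly6c2-positive). The alveolar-macrophage-like one was cell 36, with S100a4 and S100a1 on 1 fragment each. None of the 3 was found in 6 cells, 5 of them C1q-positive. S100a4 and S100a6 were detected together in 51 cells and both missed in 18, leaving 4 cells with only 1 of the pair.

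Among the 28 pairs of members, 7 had a Spearman rho of 0.3 or more over the 73 cells, and 6 of the 15 pairs of members that passed the filter did, against 1.9% of all pairs of genes that passed it. Those gene pairs were not matched to the members in level. Cells share the class, the chip and their differences in depth, so the values are descriptions. S100a4 and S100a6 gave 0.67 over all cells, 0.47 without the alveolar-macrophage-like cells and 0.10 within the 30 Ly6c2-positive cells. The pairing of S100a6 with S100a10 held at 0.61 over all cells, 0.71 without the alveolar-macrophage-like cells and 0.63 within the Ly6c2-positive cells. S100a6 with S100a11 gave 0.49 over all cells and 0.39 within the Ly6c2-positive cells. S100a10 and S100a11, which lie 28792 bases apart, gave 0.46 over all cells and -0.05 within the Ly6c2-positive cells. S100a4 and S100a1 gave -0.31 over all cells and 0.02 without the alveolar-macrophage-like cells. S100a8 and S100a9 gave 0.39, which rests on a single cell. Within the Ly6c2-positive cells 3 pairs reached 0.3, against 7.55% of gene pairs there.

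**Figure D4:**
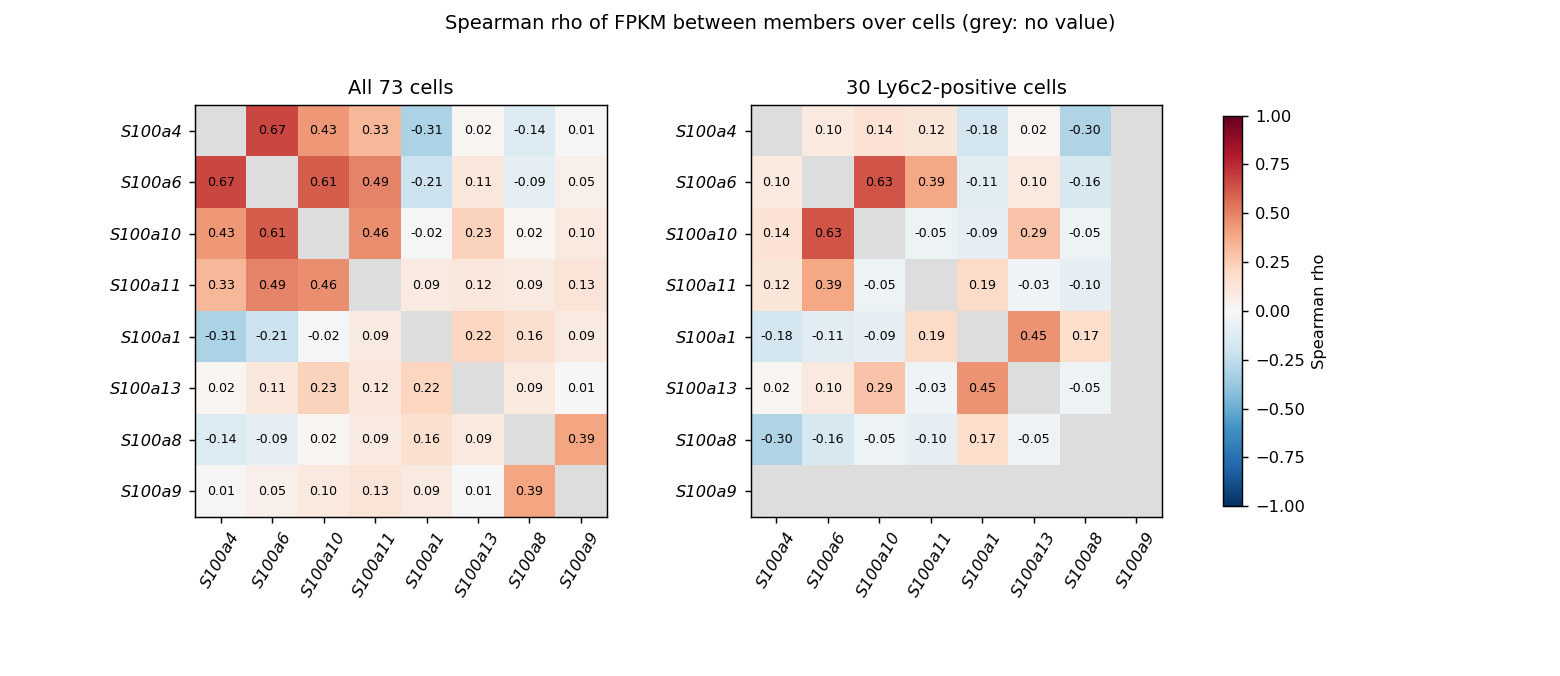
Spearman rho of FPKM between members, over all 73 cells on the left and over the 30 Ly6c2-positive cells on the right. Grey marks pairs with no value. S100a6 with S100a10 is 0.61 on the left and 0.63 on the right, while S100a4 with S100a6 is 0.67 on the left and 0.10 on the right.

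S100a1 and S100a13 stand head to head, at chr3:90511034-90514392 on the minus strand and chr3:90514435-90524581 on the plus strand, with 42 bases between them in GENCODE. In RefSeq they overlap by 98 bases, so that reads from the shared stretch cannot be told apart without strand. The pair was detected together in 31 cells, S100a1 alone in 10 and S100a13 alone in 20. Their rho was 0.22 over all cells and 0.45 within the Ly6c2-positive cells.

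S100a11 was high across most cells, and the stretch before its start, chr3:93520246-93520487, is shown for comparison with those of S100a4 and S100a6. It is from RefSeq on GRCm38.p6, plus strand, and capitals mark AP-1 (TGANTCA) and GC box (GGGCGG) letters.
S100a11: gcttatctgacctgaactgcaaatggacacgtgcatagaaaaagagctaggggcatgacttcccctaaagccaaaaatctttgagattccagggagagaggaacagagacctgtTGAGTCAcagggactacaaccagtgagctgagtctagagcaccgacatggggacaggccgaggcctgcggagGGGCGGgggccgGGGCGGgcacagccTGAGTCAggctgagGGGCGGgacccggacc
It held TGANTCA 2 times and GGGCGG 3 times. The shares of mouse promoter windows given above, 6.87% and 32.9%, are for at least 1 match.

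S100a8 and S100a9, the calprotectin pair, were nearly absent. S100a8 was detected in 7 of 73 cells (9.59%, 3.94 to 18.8) and S100a9 in 1 (1.37%, 0.0347 to 7.40). Cell 30, C1q-positive, held S100a8 at 3752 FPKM from 5713 fragments and S100a9 at 26.5 FPKM from 63 fragments. It also held Ly6c2 at 1816 FPKM, with C1qa at 48.2 FPKM, and was not in the Ly6c2-positive class because the C1q rule was applied first. Of 11 neutrophil markers, 5 were detected in that cell (Cxcr2, Csf3r, Lcn2, Elane and Mpo). Of these, Cxcr2 was detected in 62 and Csf3r in 37 of the 73 cells. In C1q-positive cells Cxcr2 reached at most 7.73 FPKM and Csf3r at most 2.33 FPKM. The 11 markers summed to 1489 FPKM in cell 30, and Elane was listed at 0 in every other class. Retnlg, another neutrophil marker, was listed at 0 in every cell. Mmp8, Mmp9, Camp, Ltf and Ngp were listed at 0 in every C1q-positive cell. Cell 30 was the most deeply read cell at 3485925 mouse fragments. The next were cell 83 (remaining) at 571 FPKM of S100a8, cell 6 (alveolar-macrophage-like) at 68.5 and cell 64 (class II-positive) at 17.3. Cells 75, 12 and 28 stood below 4 FPKM, cells 12 and 28 on 1 fragment each. In the Ly6c2-positive cells S100a8 was detected in 1 of 30, at 3.80 FPKM, and S100a9 in 0 of 30, so that up to 10% of such cells (3 of 30) could hold a detected transcript.

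The other rows whose symbols start with S100 were near silent. S100a16 was detected in 2 cells, at 2165 FPKM in cell 2, the cell with endothelial markers, and at 65.1 FPKM in another. S100a14, S100a2, S100a3, S100a5, S100a7a, S100b, S100g, S100z and S100pbp, whose product binds an S100 protein and is no family member, were detected in 0 of 73 cells. Taking 3 cells as the most that a count of 0 allows, up to 4.11% could hold a detected transcript.

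Of 16 genes for partners, receptors and release of S100 proteins, 13 passed the filter. In alveolar-macrophage-like against Ly6c2-positive cells 4 of these were higher and 1 lower, against 18.6% of all tested genes higher and 12.1% lower. The 4 were Cd36, a scavenger receptor (difference 4.95), Cacybp, whose product binds S100A6 (3.46), Anxa5 (2.56) and Il1a (2.15). The lower one was Ahnak, a scaffold of the S100A10 and annexin A2 complex (-1.76). Anxa2 was detected in all 12 alveolar-macrophage-like cells at a median of 827 FPKM and in all 30 Ly6c2-positive cells at 740 FPKM, a difference of 0.65. In C1q-positive cells 5 were lower and 3 higher than in Ly6c2-positive cells, against 10.8% of all tested genes lower and 13.8% higher, with Anxa2 at -4.94 and Anxa1 at -3.58. In class II-positive cells 3 were lower and 2 higher, against 8.96% of all tested genes lower and 8.5% higher. In remaining cells 7 were lower and 2 higher, against 20.1% lower and 6.1% higher.

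For the listed receptors of calprotectin, Tlr4 transcripts were found in 2 of 12 alveolar-macrophage-like, 2 of 10 C1q-positive, 4 of 13 class II-positive, 1 of 8 remaining and 6 of 30 Ly6c2-positive cells. In the same order of classes, Bsg was detected in 7 of 12, 6 of 10, 9 of 13, 3 of 8 and 12 of 30. Cd36 was detected in 11 of 12, 4 of 10, 4 of 13, 4 of 8 and 4 of 30. Ager, the receptor for advanced glycation end products, was detected in 1 class II-positive and 1 Ly6c2-positive cell. Fgf1 was detected in none of the classes and Syt1 was listed at 0 throughout. Over the 73 cells S100a10 with Anxa2, its partner in the membrane complex, gave a rho of 0.47, and 0.32 within the Ly6c2-positive cells. S100a11 with Anxa1 gave 0.55 over the 73 cells and 0.19 within the Ly6c2-positive cells. S100a6 with Anxa2 gave 0.38 over all cells and 0.71 without the alveolar-macrophage-like cells, of which all 12 held Anxa2 and 1 held S100a6. S100a4 with Myh9, the heavy chain of the myosin that S100A4 binds, gave -0.16, and Myh9 was detected in every cell. S100a6 with Cacybp gave -0.20.

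Among 3953 genes detected in at least 15 cells, the genes most like each member by Spearman rho over 73 cells were as follows. For S100a6 they were Ly6c2 (0.71), Ccr2 (0.68), Crip1 (0.67) and Ly6i (0.63). For S100a4 they were Ifitm3 (0.59), Ly6c2 (0.56), Ccr2 (0.55) and Kdm7a (0.55). Without the alveolar-macrophage-like cells, rho with these genes was 0.39, 0.40, 0.34 and 0.43 for S100a4. For S100a6 it was 0.62, 0.53, 0.56 and 0.59 with its own 4. S100a4 and S100a6 shared Serpinb6a and Dst at the low end, at -0.57 and -0.60 with S100a6. For S100a10 they were Tgfbi (0.60), a matrix protein, Crip1 (0.57), Lgals3 (0.54), which encodes galectin 3, and Vim (0.52), which encodes vimentin. For S100a11 they were Fn1 (0.58), Mterfd1 (0.57), Vim (0.56) and Anxa1 (0.55). Malat1, a nuclear noncoding RNA, was lowest for S100a10 at -0.44 and next to lowest for S100a11 at -0.38.

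S100a1 was most like Ltc4s (0.66), the enzyme that makes leukotriene C4, Plet1 (0.63), Actn1 (0.60) and Ctsk (0.60), a lysosomal protease. Without the alveolar-macrophage-like cells rho was 0.35 with Ltc4s, 0.31 with Plet1, 0.42 with Actn1 and 0.28 with Ctsk. S100a1 also had a rho of 0.57 with the number of genes detected per cell, against a median of 0.19 over all tested genes, and the part of that in its pattern was not tested. S100a13 had no close match, with Exoc5 highest at 0.43.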

How the data were processed

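Libraries were made from cells captured on a Fluidigm C1 chip with SMARTer and Nextera XT kits, per the labels' protocols. Reads were processed with CASAVA 1.8, TopHat2 2.1.0, Cufflinks 2.2.1 and Cuffnorm on mm10, per the submitters' processing notes. Which gene annotation was used is not given in the sources used here. Values of the deposited FPKM table are per kilobase and normalised between cells by the authors. The deposited count table holds a scaled signal, fragment counts that the authors' tools divided by a factor per cell. Of 99703 low values, 99.6% lay within 0.1 of a whole step of their cell, so fragments were taken as the value divided by that step. An exact 0 may be a failed estimate.

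Of 100 spike-in rows 1 held values, and these rows were set aside, leaving 23994 genes. Genes detected in at least 8 cells were tested (6151), with differences of mean log2(FPKM + 1) called at 1 log2 unit and pairs at a Spearman rho of 0.3. Clustering used 1000 variable genes without S100 and partner genes, 10 principal components and Ward linkage. Cuts into 2 to 6 clusters with at least 5 cells each were compared, and 4 clusters gave the highest silhouette (0.253). A cluster was named where 3 of its 10 leading genes were markers. No doublet caller was run. The scripts were tested on simulated data. Python 3.11.15, scipy 1.17.1 and scikit-learn 1.9.0 were used. Named genes were the members, other S100 rows, a list of 16 partners, class genes, markers, and the 4 highest and 2 lowest genes by rho with each member. Members and lists were chosen with earlier results of these data known. Alternatives were the count table, other scalings, thinning, thresholds, pseudocounts, class definitions and sets of cells.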

Additional observations from a re-analysis of the deposited data

Results flagged for a closer look

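A spike-in row outside the gene rows, RNASPIKE1-EC02, held a median of 36.6% of the fragments of a cell. It was used above only to scale between cells.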

How the results depend on the processing

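The 7 counts of members kept within 1.5 times their value in 56 of 58 recomputations, and 0 differences of 1 log2 unit or more changed sign. Of the smaller ones 3 did under other scalings, another pseudocount or without the cells with other lineage markers. S100a4 in class II-positive cells was 0.15 without those cells, against -0.50. S100a13 in remaining cells was 0.11 when rescaled to one total, against -0.08. S100a1 in C1q-positive cells was 0.03 by spike-in, against -0.31. Other class definitions also turned signs. S100a13 in remaining cells was 0.90 with class genes at 1 FPKM, and S100a1 in C1q-positive cells 0.02 by the rule of 6 markers. So did single cells left out: S100a13 in alveolar-macrophage-like cells was -0.43 without cell 36, against 0.21. S100a4 in class II-positive cells was 0.17 without cell 2, and S100a13 in remaining cells 0.60 without cell 59. The count lower in class II-positive than in Ly6c2-positive cells was 1 without the cells with other lineage markers, against 3, because S100a6 and S100a10 no longer passed, and fewer cells entered. The count of member pairs was 3 within Ly6c2-positive cells, against 7, where only 30 cells entered. Of 216 recomputations for single members 215 stayed within the spread, and the S100a6 difference between alveolar-macrophage-like and Ly6c2-positive cells was -12.2 with a pseudocount of 0.1, against -9.29. Dividing by the spike-in RNA, added after the data were seen, shifted the median of all tested genes by 0.16 in alveolar-macrophage-like, 0.33 in C1q-positive, 0.04 in class II-positive and -0.29 in remaining cells, each against Ly6c2-positive cells. It changed none of the class counts. K-means put 17 cells and a rule of 6 markers 16 cells in the alveolar-macrophage-like class, and both held all 12. No paired analysis was possible because all cells belong to 1 group. Depth limits what an undetected member means: after thinning to equal depth S100a1 was detected in 38 cells, against 41, and S100a8 in 5, against 7.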
